A study of Rattus norvegicus with 22 samples.

Results

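Proliferating tubule cells are kidney tubule cells whose nuclei carry an expression program of cell division. The authors annotated 2403 of the 310282 nuclei in a single-nucleus RNA-Seq (snRNA-Seq) atlas of whole rat kidney with this type. The share was 0.774% (95% CI 0.744% to 0.806%, exact binomial, counting error only). The total is that of the deposited annotation and slightly exceeds the number of cells that the study reports. Members were taken from that annotation alone. Of the 16 annotated types, only monocytes had fewer nuclei. The authors used *Mki67*, a marker of dividing cells, to name the type. The levels of *Mki67* and of *Top2a*, another such marker, were not analysed here, so the label was not checked against gene values, and only the position of the members on the deposited uniform manifold approximation and projection (UMAP) is described.

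The kidney tubule is lined by cells that divide rarely in the healthy adult. After injury, and also during the growth of a remaining kidney after nephrectomy, tubule cells reenter the cell cycle, and the proximal tubule, which reabsorbs most of the filtered sodium, glucose, and amino acids, is best known for this response. *Mki67* encodes the Ki-67 protein of cycling nuclei, and *Top2a* encodes the topoisomerase that untangles DNA during replication and chromosome segregation.

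All rats were male Sprague-Dawley. Control rats had a sham operation. By the labels, all other rats had 1 kidney removed (the study's methods do not name the amiloride group in that step) and received weekly injections of deoxycorticosterone acetate (DOCA), a mineralocorticoid, at 50 mg/kg together with salt in the drinking water. DOCA rats were gavaged with vehicle, and the 3 drug groups received DOCA plus the nonsteroidal mineralocorticoid receptor antagonist finerenone at 10 mg/kg per day, DOCA plus the steroidal antagonist spironolactone at 50 mg/kg per day, or DOCA plus amiloride, which blocks the epithelial sodium channel, at 20 mg/kg per day. Removal of a kidney, salt, and DOCA therefore cannot be told apart in the comparison of DOCA with control rats.

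The annotation holds 22 libraries, 5 each of control, DOCA, DOCA+finerenone, and DOCA+spironolactone and 2 of DOCA+amiloride, the same numbers as the labeled samples. The labels give 6 weeks for all control and amiloride samples and 3 weeks for 1 of 5 samples in each of the DOCA, finerenone, and spironolactone groups. The label calls this an age, and after the study's methods it was read as the time under treatment. No library was matched to a sample, so the times were combined. The treatment of each library came from the annotation, and libraries were taken as the replicates of a treatment. Nothing in the sources used here says that each library came from a separate rat, so p-values measure only the spread between libraries, which may in part be technical.

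Libraries held from 759 to 48403 nuclei, and each is named below by its number of nuclei. The library names were of 3 kinds. There were 11 names with no tag, 6 with an Old or New tag alone, and 5 with such a tag followed by MO. The names are not explained. MO was read here as the Multiome kit, which reads RNA and open chromatin in the same nucleus and is listed in the labels of some samples, and these 5 are called Multiome libraries below, while tagged means the 6. A number recurs in the names of more than 1 library for 5 numbers, and 4 of these recur under different treatments. Of the 5 finerenone libraries, 3 share a number with a DOCA library. Whether such libraries come from 1 rat is not given in the sources used here, and the treatments were used as annotated. Between libraries, 9782 of 300310 barcodes (3.26%) occurred more than once. This was true of 171 proliferating nuclei (7.12%) and of 6.37% of all nuclei, and 1 shared barcode was annotated as proliferating in more than 1 library. The 10 pairs of Multiome libraries shared 3129 barcodes, the 136 pairs with no Multiome library 7017, and the 85 mixed pairs 20.

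Proliferating tubule nuclei were more frequent in every library of the DOCA group, which received no drug, than in any control library. The 5 control libraries contained 0 of 1238, 13 of 5312, 16 of 6629, 73 of 14747, and 93 of 18931 nuclei of this type. As shares of all nuclei these were 0%, 0.245%, 0.241%, 0.495%, and 0.491%. The smallest control library had no such nucleus, and 3 counts among its 1238 nuclei would be a share of 0.242%. The exact 95% interval for 0 of 1238 (counting error only) reached 0.298%, above the shares of the next 2 control libraries.

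In the DOCA group there were 17 of 1774, 127 of 8300, 96 of 8716, 227 of 13307, and 142 of 15167 proliferating nuclei. Their shares were 0.958%, 1.53%, 1.10%, 1.71%, and 0.936%. The lowest DOCA library thus lay above the highest control library, and the groups did not overlap. The mean share was 1.25% ± 0.351 (SD, n = 5) in DOCA and 0.294% ± 0.207 (SD, n = 5) in control, a 4.23-fold difference of 0.952 percentage points (95% interval 0.527 to 1.46, from inverting the exact permutation test). The two-sided exact permutation test over libraries gave p = 0.00794, the smallest that 5 against 5 libraries allow.

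This did not pass correction for the 16 types tested. The exact permutation p was 0.0635 after Benjamini-Hochberg adjustment, and 3 types at the smallest p would have been enough for those to pass. None of the 16 types (0.0%) passed the adjusted test, whereas 5 of 16 (31.2%) had an unadjusted exact p under 0.05. The proliferating type had the largest ratio of DOCA to control among the 16 types. Of all types, 12.5% had DOCA libraries that all lay above the control libraries, namely the proliferating type and lymphocytes, whose mean share was 1.59% in DOCA and 0.424% in control. The other types with an unadjusted exact p under 0.05 were macrophages, monocytes, and injured proximal tubule (iPT) cells, with ratios of 2.89, 1.96, and 1.75. Lymphocytes and monocytes were named after their values were seen. Shares of 1 library add up to a whole, so they are not independent of each other.

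**Figure D1:**
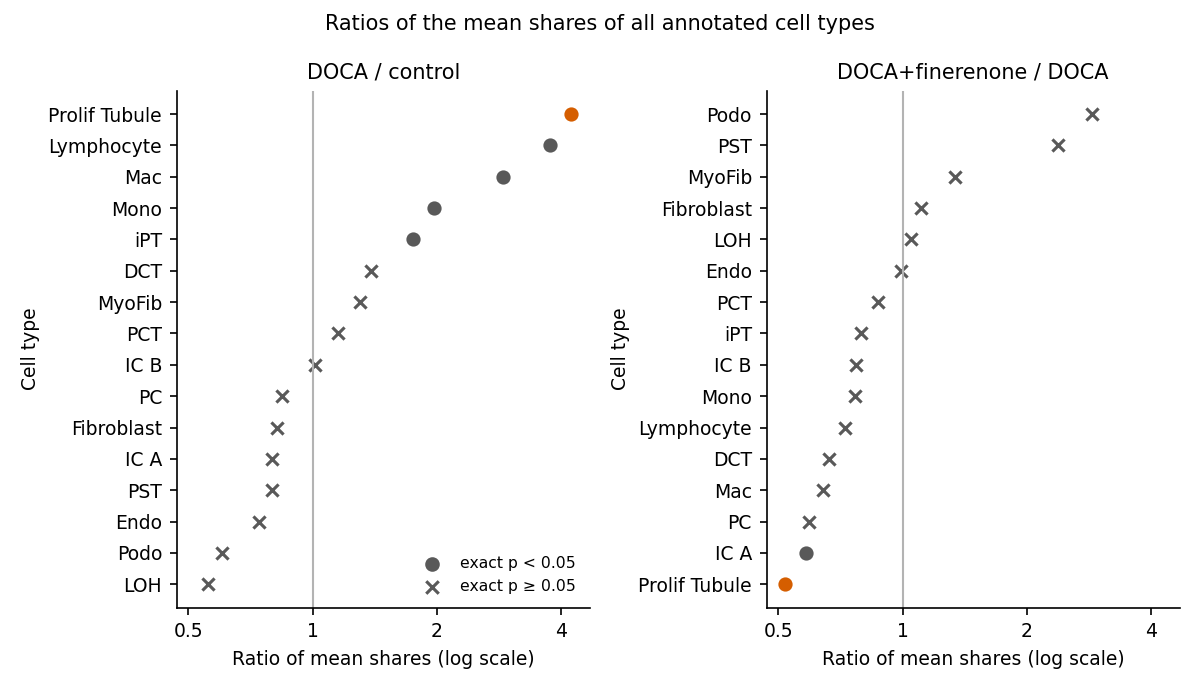
Ratio of the mean share over libraries for each of the 16 annotated cell types (log scale), DOCA to control on the left and DOCA+finerenone to DOCA on the right, with proliferating tubule nuclei in orange. Circles have an unadjusted exact permutation p under 0.05 and crosses do not. The proliferating type is at 4.23 and highest on the left and at 0.52 and lowest on the right. Both panels use the same DOCA libraries and are not independent.

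With finerenone, 51 of 6564, 77 of 9325, 52 of 13679, 393 of 40267, and 136 of 48403 nuclei were proliferating. The shares were 0.777%, 0.826%, 0.380%, 0.976%, and 0.281%. Of these 5 libraries, only the one of 40267 nuclei reached the range of the DOCA libraries, and the 2 largest libraries of the group had its highest and its lowest share. The mean was 0.648% ± 0.301 (SD, n = 5), a difference from DOCA of -0.598 percentage points (95% interval -1.09 to -0.118), and the ratio of 0.52 was the lowest of the 16 types. The two-sided exact permutation p was 0.0238 and, after Benjamini-Hochberg adjustment over 16 types, 0.190. The difference of medians was smaller, at -0.324 percentage points. Without Multiome libraries the exact permutation p was 0.0571. With 1 library left out in each group, it was no longer under 0.05 in 20 of 25 settings. At an unadjusted exact p under 0.05, 12.5% of the types differed in this comparison, the other being type A intercalated cells (named after their values were seen), and none passed adjustment.

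Spironolactone libraries contained 8 of 759, 68 of 6404, 86 of 13610, 204 of 22151, and 247 of 33683 proliferating nuclei. Their shares were 1.05%, 1.06%, 0.632%, 0.921%, and 0.733%, and 2 of the 5 lay within the DOCA range. The mean was 0.880% ± 0.192 (SD, n = 5), a difference from DOCA of -0.366 percentage points (95% interval -0.797 to 0.0432). The test of this difference did not pass 0.05 (two-sided exact permutation p = 0.0873, adjusted p = 0.698). Its interval holds both no difference and a difference larger than the one seen with finerenone. No type (0.0%) had an unadjusted exact p under 0.05 here. The doses of the 2 antagonists differ, so their values are given side by side and were not compared with each other.

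The 2 amiloride libraries held 124 of 10172 and 153 of 11144 proliferating nuclei, or 1.22% and 1.37%. Both lay inside the DOCA range. The mean of 1.30% ± 0.109 (SD, n = 2) was 0.0496 percentage points above DOCA (two-sided exact permutation p = 0.952), and with 2 against 5 libraries the test cannot go below 0.0952. All 3 drug comparisons and that of DOCA with control use the same DOCA libraries and are not independent.

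**Figure D2:**
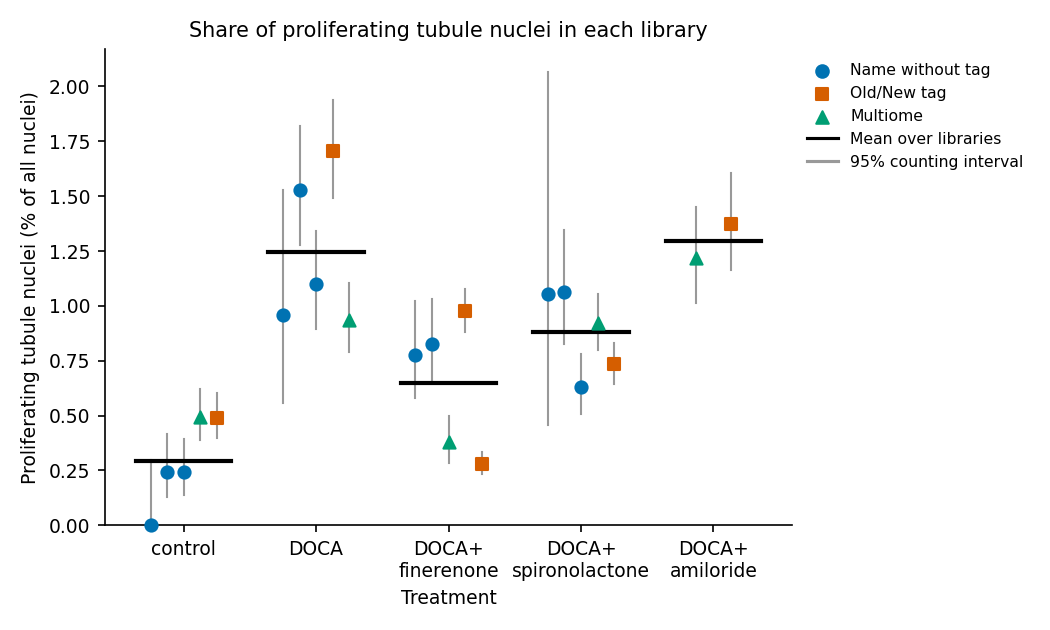
Proliferating tubule nuclei as a percentage of all nuclei (vertical axis) in each of the 22 libraries by treatment, within a treatment in order of library size. Symbols show the kind of library, gray lines the exact 95% binomial interval (counting error only), and black bars the mean over libraries. All 5 DOCA libraries lie above the 5 control libraries, and the finerenone libraries spread from 0.281% to 0.976%.

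The drug groups were then set against control kidneys, which was added after the library values had been seen. Every spironolactone library lay above every control library, with a difference of 0.586 percentage points (95% interval 0.283 to 0.870) and a two-sided exact permutation p of 0.00794 (Benjamini-Hochberg adjusted p = 0.0762 over 16 types). Spironolactone libraries lay wholly above control in 6.25% of the types. Both amiloride libraries also lay above control, by 1.00 percentage point on average, as did 12.5% of the types, with an exact permutation p of 0.0952 that is the smallest possible. Finerenone libraries overlapped the control range, with 2 of the 5 below the highest control library. Their difference from control was 0.353 percentage points (95% interval -0.0389 to 0.756), with a two-sided exact permutation p of 0.0794 and an adjusted p of 0.381. Within kinds of library this difference was 0.639 in untagged and 0.137 in tagged libraries and -0.115 in the Multiome pair, so its direction was not the same in all kinds. In order of mean share the groups thus ran from control through finerenone, spironolactone, and DOCA to amiloride. Among neighbors in this order, the tests of control against finerenone and of spironolactone against DOCA did not pass 0.05. That of DOCA against amiloride could not, and finerenone and spironolactone were not tested.

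Because the share of all nuclei moves with the yield of every other type, proliferating nuclei were also counted per 100 proximal tubule nuclei, the sum of proximal convoluted tubule (PCT), proximal straight tubule (PST), and iPT cells, of which there were 172525. Control libraries had 0, 0.640, 0.448, 0.944, and 0.976 proliferating nuclei per 100, in order of library size. DOCA libraries had 1.60, 2.97, 1.81, 3.37, and 2.16. Every DOCA library again exceeded every control library.

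The mean was 2.38 ± 0.760 (SD, n = 5) in DOCA and 0.602 ± 0.401 (SD, n = 5) in control, a difference of 1.78 per 100 (95% interval 0.898 to 2.73). The two-sided exact permutation p was 0.00794 and the adjusted p over the 13 types outside the proximal tubule was 0.103. On this scale 7.69% of the 13 types had all DOCA libraries above all control libraries, and the proliferating type was the one that did. By the unadjusted exact p under 0.05, 23.1% of the 13 types differed.

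Finerenone libraries had 1.43, 1.35, 0.821, 1.77, and 0.328 proliferating nuclei per 100 proximal tubule nuclei. All but the library of 40267 nuclei lay below the DOCA range. The mean of 1.14 ± 0.567 (SD, n = 5) differed from DOCA by -1.24 per 100 (95% interval -2.29 to -0.252), with a two-sided exact permutation p of 0.0159 and an adjusted p of 0.206. On this scale 15.4% of the 13 types had an unadjusted exact p under 0.05 in that comparison. The difference of medians was -0.812 per 100. With 1 library left out in each group, the exact permutation p was no longer under 0.05 in 16 of 25 settings. The lowest library, of 48403 nuclei, had 41499 proximal tubule nuclei, more than any other library.

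Spironolactone libraries had 1.76, 1.84, 1.08, 1.67, and 2.58 per 100. They overlapped the DOCA range, and the mean of 1.79 ± 0.538 (SD, n = 5) differed from DOCA by -0.597 per 100 (95% interval -1.70 to 0.421; two-sided exact permutation p = 0.190). The largest spironolactone library, of 33683 nuclei, was next to last in its group by share of all nuclei and highest by this ratio. Amiloride libraries had 2.21 and 2.42 per 100, a mean of 2.31, beside 2.38 in DOCA (exact permutation p = 1.0, smallest possible 0.0952).

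**Figure D3:**
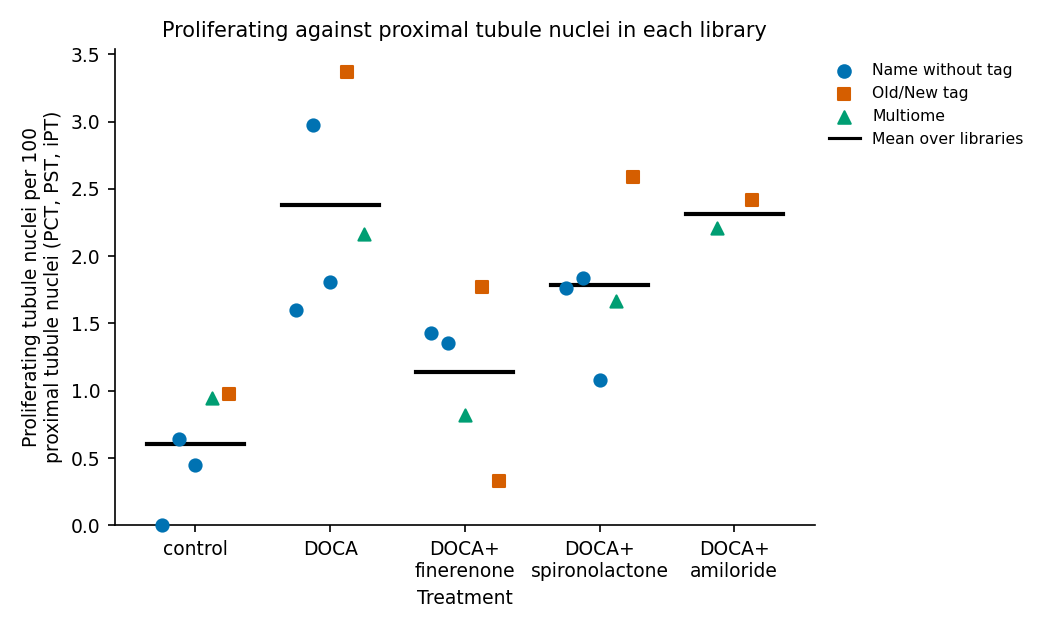
Proliferating tubule nuclei per 100 proximal tubule nuclei (PCT, PST, and iPT, vertical axis) in each library by treatment, within a treatment in order of library size. Symbols show the kind of library and black bars the mean over libraries. DOCA libraries range from 1.60 to 3.37 and control libraries from 0 to 0.976.

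The ratio to iPT nuclei alone, the proximal tubule cells that carry injury genes, was also computed. Control libraries ranged from 0 to 11.1 proliferating nuclei per 100 iPT nuclei and DOCA libraries from 8.19 to 36.7, and these ranges overlapped. The means were 6.72 and 18.0, with a two-sided exact permutation p of 0.0317. That p was 0.0635 without any one of 6 of the 10 libraries. Finerenone had a mean of 12.4 and spironolactone one of 14.2. The DOCA mean rested on the library of 13307 nuclei, without which it was 13.3, its difference from control was 6.56, and the differences of finerenone and spironolactone from DOCA were -0.874 and 0.884 in place of -5.56 and -3.81. Of the 2 amiloride libraries, that with 27.5 exceeded 4 of the 5 DOCA libraries and that with 41.6 exceeded all 5.

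Across the 22 libraries, the share of proliferating nuclei showed no relation to the iPT percentage of proximal tubule nuclei that passed a test (Pearson's r = 0.19, permutation p = 0.394; Spearman's rho = 0.13, permutation p = 0.553). Without the 2 libraries farthest from the median iPT percentage r was 0.07. Within the 11 libraries with untagged names r was 0.57 and rho 0.60 (permutation p = 0.0653 and 0.0561), and within the other 11 r was -0.0026 and rho -0.13 (permutation p = 0.994 and 0.713). Centered on the treatment means, r was 0.03. Over all libraries the share was likewise unrelated to the log10 of the library size by test (r = 0.04, permutation p = 0.862; rho = -0.07, permutation p = 0.745). The direction of r with library size changed with the kind of library. It was 0.17 in the 11 untagged libraries, -0.46 in the other 11, and -0.72 in the 6 tagged ones (permutation p = 0.62, 0.16, and 0.12). For the iPT percentage and library size over all 22 libraries, the Benjamini-Hochberg adjusted p of r was 0.789 and 0.862.

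The kind of library moved with the share in the control group. The 3 untagged control libraries had 0% to 0.245%, whereas the tagged one had 0.491% and the Multiome one 0.495%. DOCA exceeded control within all 3 kinds. Among untagged libraries the means were 1.20% and 0.162% (n = 3 each), among tagged ones 1.71% and 0.491% (n = 1 each), and among Multiome ones 0.936% and 0.495% (n = 1 each). With the kind of library as a term, and permuting only within kinds, the difference remained 0.952 percentage points with an exact permutation p of 0.025, the smallest possible.

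Finerenone was also below DOCA within all 3 kinds. The mean shares were 0.801% (n = 2) and 1.20% (n = 3) in untagged libraries, 0.628% (n = 2) and 1.71% (n = 1) in tagged libraries, and 0.380% and 0.936% (n = 1 each) in Multiome libraries. The difference within kinds was -0.621 percentage points (exact permutation p = 0.0333, the smallest possible). Spironolactone differed from DOCA by -0.281 percentage points in untagged, -0.973 in tagged, and -0.0153 in Multiome libraries (exact permutation p within kinds = 0.175). For amiloride the direction differed between kinds, with 1.37% beside 1.71% in tagged and 1.22% beside 0.936% in Multiome libraries.

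On the UMAP, 2244 of the 2403 proliferating nuclei (93.4%) lay on 1 island, in which each nucleus was linked to another at a distance of 0.5 or less. This island stood apart from every other type. Only 21 nuclei of other types lay on it, namely 8 PCT, 5 PST, 3 distal convoluted tubule (DCT), 2 loop of Henle, and 1 each of fibroblast, lymphocyte, and principal cell. Of the nuclei on the island 99.1% had the proliferating annotation, and the same 2244 nuclei were counted at linking distances of 0.25 and 1. UMAP coordinates have no unit, and the annotation and the map come from the same cells, so these positions describe the map and test nothing.

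The isolation of the island bears on which nuclei of other types count as its nearest. Among the 30 nearest nuclei of other types, averaged over all proliferating nuclei, 26.3% were PCT cells, 23.3% fibroblasts, 15.9% PST cells, 9.34% DCT cells, and 7.78% macrophages. Their shares of all other nuclei were 30.9%, 2.51%, 19.8%, 5.83%, and 2.06%. For nuclei on the island, however, 21 of the 30 neighbors were on average the same 21 nuclei of other types that lie on the island itself. They made up 99.3% of its PCT neighbors and all of its PST and DCT neighbors, so these shares do not measure nearness to the main body of those types. Of the neighbors outside the island, 71.3% were fibroblasts, 27.7% macrophages, and 0.604% PCT cells. The 30th neighbor lay at a median distance of 3.43 for nuclei on the island, beside 0.116 for proliferating nuclei elsewhere. By the distance to the 100th nearest nucleus of a type, macrophages (median 3.66) and fibroblasts (3.79) came closest, then lymphocytes (4.26) and PCT cells (4.94), with PST cells at 8.63 and iPT cells at 9.65.

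**Figure D4:**
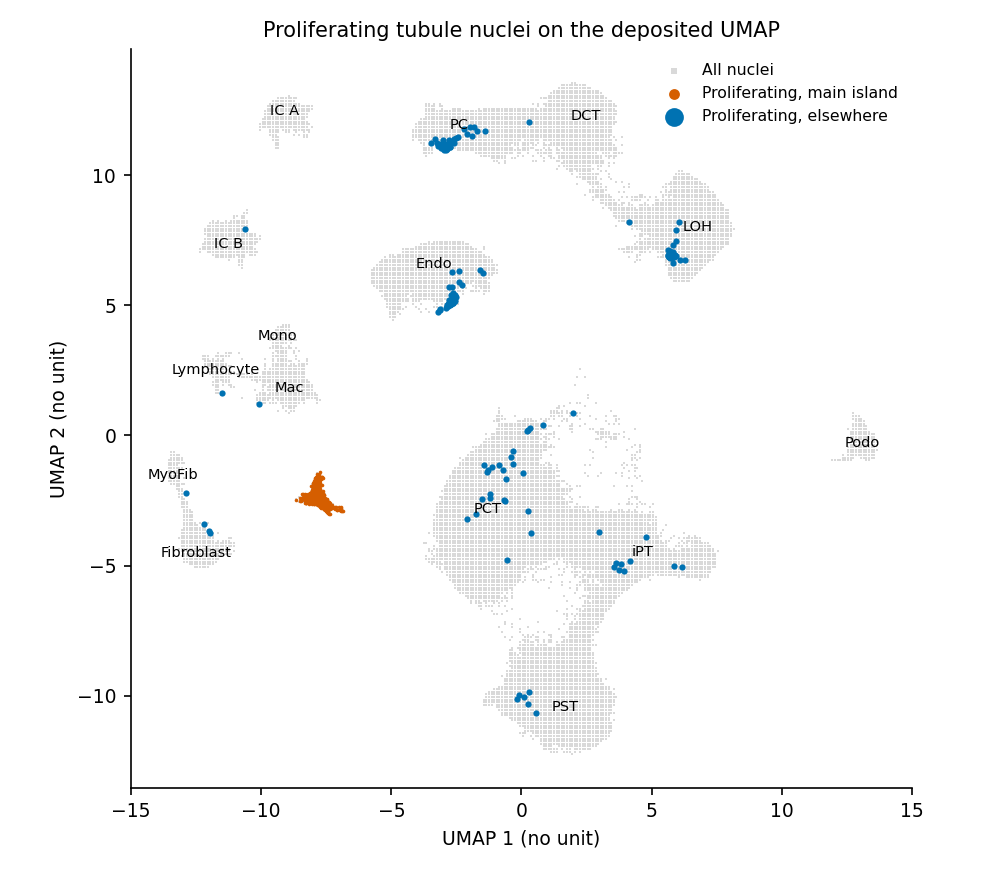
All nuclei on the deposited UMAP (gray, axes without unit), with the 2244 proliferating tubule nuclei of the main island in orange and the 159 elsewhere in blue; type names stand at each type's median position. The main island lies apart between the fibroblasts and the PCT cells, and the other proliferating nuclei lie among endothelial, principal, loop of Henle, PCT, and further cells.

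The other 159 proliferating nuclei (6.62%) were scattered over the map and came from 18 libraries. Their positions did not all match a tubule label. By the commonest type among their 30 nearest neighbors of other types, 104 (65.4%) lay beside tubule cells, namely 38 beside principal cells of the collecting duct, 27 beside PCT, 24 beside loop of Henle, 9 beside PST, 5 beside iPT, and 1 beside type B intercalated cells. The remaining 55 (34.6%) lay beside cells that are not tubular. Of these, 49 were beside endothelial cells, in 14 libraries, 3 beside fibroblasts, 2 beside lymphocytes, and 1 beside myofibroblasts. Set against the number of nuclei of each neighboring type, these nuclei came to 0.248% of principal and 0.220% of endothelial cells, the highest values of the 15 other types. Lymphocytes came next with 0.0667%, from 2 nuclei, then loop of Henle cells with 0.0623%, and PCT cells had 0.0283%. Endothelial, principal, and loop of Henle cells were named after their values were seen.

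Proliferating nuclei beside principal cells numbered 2 in control, 22 in DOCA, 0 in finerenone, 12 in spironolactone, and 2 in amiloride libraries. Of the 22 in DOCA, 15 came from the Multiome library of 15167 nuclei. Those beside endothelial cells numbered 10, 10, 13, 14, and 2 in the same order. These counts were picked out after they were seen and were not tested. They are not scaled to group size, which was 47264 nuclei in DOCA and 118238 in finerenone libraries. Tagged libraries held 227 of 609 proliferating nuclei in DOCA and 529 of 709 in finerenone. Only 1 of the 38 nuclei beside principal cells came from a tagged library. The counts therefore cannot be compared between treatments as they stand. With the scattered nuclei left out, the share on the main island was 0.846 percentage points higher in DOCA than in control (exact permutation p = 0.00794) and differed by -0.510 between finerenone and DOCA (exact permutation p = 0.0635).

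The position of a proliferating nucleus moved with the kind of library. In tagged libraries 6 of 1249 proliferating nuclei lay off the island (0.480%, 95% CI 0.176% to 1.04%, counting error only), against 73 of 559 (13.1%) in untagged and 80 of 595 (13.4%) in Multiome libraries. Single libraries ranged from 0% to 3.23% among the tagged and from 8.06% to 19.7% among the Multiome libraries, which did not overlap. Untagged libraries ranged from 0%, in the one of 759 nuclei with its 8 proliferating nuclei, to 30.8%, in a control library with 13 such nuclei.

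Within the island, too, tagged libraries occupied a narrow place. The median first coordinate of each tagged library was between -8.165 and -8.150, and that of every other library was between -7.97 and -7.67. Among the 30 nearest proliferating nuclei, 69.0% came from the same kind of library, beside 38.6% under full mixing, a ratio of 1.79. For the same treatment the values were 28.3% and 23.6% (ratio 1.20), and for the same library 16.0% and 7.78% (ratio 2.06). Whether the kind of library has a part in the shares above was not tested beyond the fit within kinds.

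**Figure D5:**
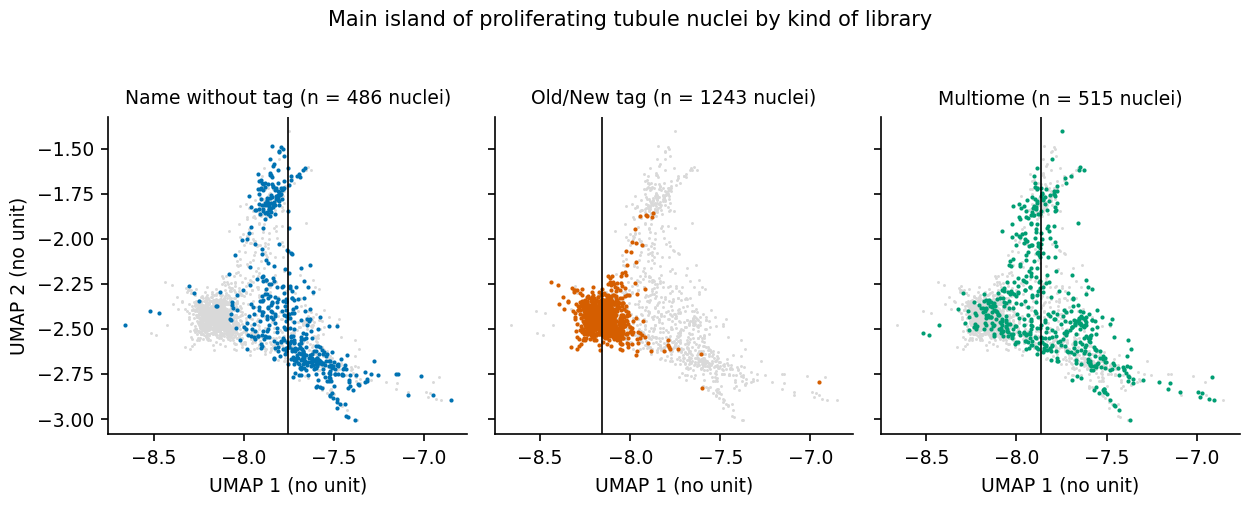
The main island of proliferating tubule nuclei (UMAP axes without unit), with the nuclei of each kind of library in color over those of all libraries in gray and a vertical line at their median first coordinate. Nuclei from tagged libraries (n = 1243) crowd at the left, with a median of -8.16, whereas those from untagged (n = 486, -7.75) and Multiome libraries (n = 515, -7.86) lie mostly to the right of these and spread more widely.

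For each library with at least 10 proliferating nuclei, the share of them lying nearest to PCT, PST, or iPT cells was compared between treatments. It averaged 52.6% in control (n = 4), 56.2% in DOCA (n = 5), 40.4% in finerenone (n = 5), 45.2% in spironolactone (n = 4), and 39.4% in amiloride libraries (n = 2). On the island this measure sets the 8 PCT nuclei that lie there against the nearest fibroblasts, so it does not read nearness to the proximal tubule, and nothing is drawn from it about the treatments. The two-sided exact permutation p was 0.857 for DOCA against control and 0.206, 0.413, and 0.381 for finerenone, spironolactone, and amiloride against DOCA, and the last test cannot go below 0.0952. The measure followed the kind of library, at 18.8% to 25.5% in the 6 tagged libraries and 44.2% to 76.7% in the others, and it changed direction with the number of neighbors counted.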

How the data were processed

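Nuclei were isolated from whole kidneys of 22 rat samples. According to the study's methods, the authors counted reads with Cell Ranger (the submitters' processing notes give versions 3.0.2 and 6.0.1, build rn6, and Seurat 4.0.1), used SoupX against ambient RNA and DoubletFinder against doublets, filtered and merged nuclei in Seurat, corrected batches with Harmony, and named clusters by marker genes. UMAP coordinates were deposited as a score without a unit, beside the names of library, treatment, and cell type. Gene values and depth per nucleus were not used here.

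The nuclei of each library were tallied with pandas 2.3.3 on Python 3.11.15. Treatments were compared over libraries by two-sided exact permutation tests of mean differences (scipy 1.17.1), and p-values were Benjamini-Hochberg adjusted over 16 types, or 13 for the ratio to proximal tubule nuclei. Correlations used 100000 permutations. Intervals of shares are exact binomial (Clopper-Pearson) and cover counting error only. Neighbors are the 30 nearest nuclei of other types. The code was tested on simulated data.

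The types to be named were the proliferating, PCT, PST, and iPT types and the 5 with the largest share among neighbors; others were named after their values were seen. The members, lists, and tests were chosen with earlier results of these data known. Alternatives were other denominators, scales, weights, library subsets, and neighbor numbers, and each library left out in turn. Comparisons of drugs with control, the term for the kind of library, and the island counts were added after the data were seen.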

Additional observations from a re-analysis of the deposited data

Results flagged for a closer look

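Of 20 groups of 4 or 5 library values examined, 1 contained a library far from the others, and chance alone flags about 1 in 20. In the DOCA group the library of 13307 nuclei had 36.7 proliferating nuclei per 100 iPT nuclei, whereas the other 4 libraries had 8.19 to 15.2. This library also had the highest share of proliferating nuclei among all nuclei, 1.71%, while its iPT cells made up 9.17% of its proximal tubule nuclei, the lowest value in the DOCA group. Without it the mean of the DOCA group was 13.3 in place of 18.0 per 100 iPT nuclei, and that of the spironolactone group was 14.2.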

How the results depend on the processing

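Differences in the share of all nuclei are in percentage points and those in the ratio are per 100 proximal tubule nuclei. DOCA remained above control under every alternative run. With each library left out in turn the difference was 0.837 to 1.03 in share and 1.53 to 1.98 in ratio. The exact permutation test could not pass in untagged libraries alone (1.03 and 1.76, where p cannot go below 0.10) or in tagged and Multiome libraries alone (0.828 and 1.81, where p cannot go below 0.333).

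Finerenone remained below DOCA under every alternative run, but the exact permutation p was no longer under 0.05 in several. These were the share and ratio without Multiome libraries (-0.609 and -1.22), in untagged libraries (-0.395 and -0.737) and in tagged and Multiome libraries (-0.775 and -1.79), in both of which p cannot go below 0.20, the share of main-island nuclei with the annotation (-0.510) or without regard to it (-0.511), and the ratio to iPT nuclei (-5.56, exact permutation p = 0.429). With 1 library left out, or 1 in each group, the values were -0.758 to -0.392 in share and -1.60 to -0.794 in ratio. The difference of medians was -0.324 in share. With 1 library left out in each group, p was no longer under 0.05 in 20 of 25 settings for the share (exact permutation p 0.0286 to 0.0857) and in 16 of 25 for the ratio (0.0286 to 0.0571). For the main-island shares and the iPT ratio the cause was not tested.

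Spironolactone was below DOCA in share and ratio, and the exact permutation p never under 0.05, with medians differing by -0.180 and -0.402, and -0.489 to -0.189 in share and -0.992 to -0.173 in ratio over libraries left out. Against control, its difference was 0.384 with pooled nuclei, 0.754 in untagged libraries, and 0.334 in tagged and Multiome libraries, where the test could not pass, and 0.512 to 0.648 over libraries left out. Finerenone against control was 0.639 in untagged and 0.0526 in tagged and Multiome libraries, 0.183 with pooled nuclei, and 0.271 to 0.445 over libraries left out, and without the finerenone library of 13679 or of 48403 nuclei the exact permutation p was 0.0476.

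Amiloride against DOCA had no stable direction. The share difference reversed to -0.0251 in tagged and Multiome libraries and with the kind of library as a term, to -0.0224 without libraries under 2000 nuclei, and to -0.00665 over tubule nuclei, and the ratio reversed to 0.00768 on the log2 scale, 0.151 as a difference of medians, and 16.6 per 100 iPT nuclei. Over libraries left out the share difference was -0.0279 to 0.164, negative without the DOCA library of 1774 or of 15167 nuclei or the amiloride library of 11144 nuclei, and the ratio -0.264 to 0.178, positive without the DOCA library of 8300 or of 13307 nuclei or the amiloride library of 10172 nuclei. The cause was not tested.

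Neighbor composition depended on the number of neighbors. With 1, 10, and 100 neighbors proximal tubule types made up 26.0%, 57.6%, and 14.7%, beside 42.5% with 30, and fibroblasts 0.499%, 5.69%, and 35.1%. Over libraries left out these were 33.3% to 42.6% and 19.4% to 34.5%, and they moved most without the finerenone library of 13679 nuclei and the DOCA library of 15167 nuclei, respectively. The share lying nearest to proximal tubule types reversed with 10 neighbors, to -4.21 for DOCA against control and to 17.2, 13.8, and 25.7 for finerenone, spironolactone, and amiloride against DOCA. Over libraries left out it was -6.08 to 12.4 for DOCA against control, negative without the control library of 18931 nuclei or the DOCA library of 8300 or of 15167 nuclei. For finerenone it was -24.7 to -10.4, and without the DOCA library of 13307 nuclei the exact permutation p was 0.0476.

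Pearson's r of the share with the iPT percentage reversed to -0.0026 in tagged and Multiome libraries, and r with library size to -0.13 without the 2 farthest libraries, -0.46 in tagged and Multiome, and -0.72 in tagged libraries. Counting as 1 the libraries of the same treatment whose names share a number (in the control and spironolactone groups) changed no call in the contrasts with those groups.

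No paired analysis was possible because libraries were not matched to the samples' replicate numbers. Unexplained numbers in library names were not used as pairs. The number of libraries limits every comparison.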
